A study of Mus musculus with 21 samples.

Results

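The liver of the mouse was profiled 3 h after partial hepatectomy (PH), the surgical removal of most of the organ, and set against the liver of untreated control mice. The 3 arrays whose titles name PH at 3 h (PH 3 h) and the 3 whose titles name control liver were taken, which makes 6 of the 21 arrays of the series, and all 11442 genes that could be tested were compared. Both groups were female CD-1 mice, 3 months old and with free access to food, with 3 mice per group and 1 array per mouse. The PH 3 h mice had only the operation and the controls had no operation and no compound. CD-1 is an outbred stock, so that the mice were not genetically identical. The other arrays came from mice killed 1 or 6 h after PH, and from mice killed 1, 3 or 6 h after a single gavage of TCPOBOP (TCP), a compound that binds the nuclear receptor CAR and makes hepatocytes divide without loss of tissue. No sham-operated mice are among the samples, and the sources used here do not say whether the controls were killed at the same hour of the day as the PH 3 h mice. The removal of liver, the anaesthesia and laparotomy, and the time of day therefore cannot be told apart in any difference between PH 3 h and control below.

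After PH the hepatocytes that remain leave quiescence and divide until the lost mass is restored. The hours before DNA synthesis are known as the priming phase, in which cytokines of the Kupffer cells such as tumour necrosis factor and interleukin 6 act on the hepatocyte, immediate early genes that need no new protein are transcribed, and growth factors such as HGF and the ligands of the EGF receptor follow. At the same time the remnant has to keep up blood glucose, plasma proteins and detoxification, receives the whole portal flow, and takes up fatty acids released from adipose tissue.

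Signals are given below as log2 of the normalised intensity of a gene's brightest probe, and a change as the log2 fold change of PH 3 h over control with its standard error (SE). A gene was called, and is said to rise or fall, at a Benjamini-Hochberg adjusted p under 0.05 in limma and a change of at least 1.5-fold. By this rule 850 of the 11442 genes were called, which is 7.43% of the genes tested, and they were split into 449 that rose (3.92%) and 401 that fell (3.5%). Counts of called members in the lists below are to be read beside this 7.43%. The rises were the larger changes, since 340 genes rose and 222 fell by at least 2-fold, 121 rose and 22 fell by at least 4-fold, and 38 rose and 3 fell by at least 8-fold. The median change over all genes was -0.05. For 823 of the 850 genes the 3 PH 3 h arrays all lay on 1 side of the 3 control arrays, and 28.9% of all genes tested had groups that did not overlap. The calls were made on the same arrays, so that the separation of called genes is no separate support. The 12 largest rises and falls below were picked among called genes without overlap. The 6 arrays detected 16777 to 17637 probes after PH and 16827 to 17835 in controls.

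The 3 mice after PH did not respond to the same extent. PH 3 h replicate 2 had the smallest change of the 3 in 615 of the 850 called genes (72.4%), against 140 for replicate 1 and 95 for replicate 3, although 99.8% of its changes had the called direction. The median change of the genes that rose was 1.58, 0.96 and 1.71 in replicates 1, 2 and 3, and that of the genes that fell was -1.12, -0.72 and -1.33. Without this array 1279 genes were called, and without PH mouse 1 or 3 the count was 399 or 325. Leaving out control replicate 1, 2 or 3 gave 370, 426 or 539 calls, and 259 of the 850 calls (181 rises and 78 falls) were made in each of these 6 fits. Called members that are named below without a remark on this belong to those 259, and PH mouse 1 to 3 and control 1 to 3 stand for the replicates of these numbers.

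The 6 arrays lay on 3 beadchips, the slides on which several arrays are hybridised together. Control replicate 1 was on beadchip 1 without a PH 3 h array, control replicate 2 shared beadchip 3 with PH 3 h replicates 1 and 2, and control replicate 3 shared beadchip 4 with PH 3 h replicate 3. All 850 genes changed in the called direction within both beadchip 3 and beadchip 4. The calls were made on these same arrays, so that this shared direction is no separate support. For the 823 genes whose groups did not overlap it follows from the separation itself. With beadchip as a block in the limma model 535 genes were called, 519 of them among the 850, and a named gene whose call this block ended is marked beside its value or counted with its list. The tests within beadchip 3 alone and within beadchip 4 alone, which rest on a single control each, called 0 genes in limma, with 1017 and 836 genes at an unadjusted p under 0.05.

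The largest rise was that of Igfbp1, a secreted protein of the hepatocyte that binds insulin-like growth factors and whose gene is a classical early response gene of the regenerating liver. Its signals were 11.21, 10.97 and 11.73 3 h after PH, against 4.67, 4.70 and 5.35 in controls. All 3 PH mice lay far above all controls, and the change was 6.39 (SE 0.86, limma adjusted p = 0.000256), or 83.8-fold. Igfbp1 was near background in controls, where it was detected on 1 of the 3 arrays. On the authors' normalised values its change was 3.20. Next came Atf3, a stress-induced transcription factor of the ATF/CREB family, with 9.41, 11.89 and 10.91 after PH and 4.61, 4.63 and 5.03 in controls. It was not well above background on any control array, and its change of 5.98 (SE 0.90, limma adjusted p = 0.000469) corresponds to at least 51.0-fold against the dimmest detected signal. Unlike most genes, Atf3 was highest in PH 3 h replicate 2. The other 10 of the 12 largest rises were Fos (5.32), Hilpda (5.30), Gadd45b (5.24), Cdkn1a (5.03), Pdk4 (4.93), S100a8 (4.70), S100a9 (4.52), Sphk1 (4.36), Akap12 (4.23) and Cd14 (4.22), which are taken up below by their roles. Akap12, a scaffold protein that anchors protein kinase A, had 10.17, 8.65 and 10.19 after PH and 5.57, 5.66 and 5.08 in controls.

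**Figure D1:**
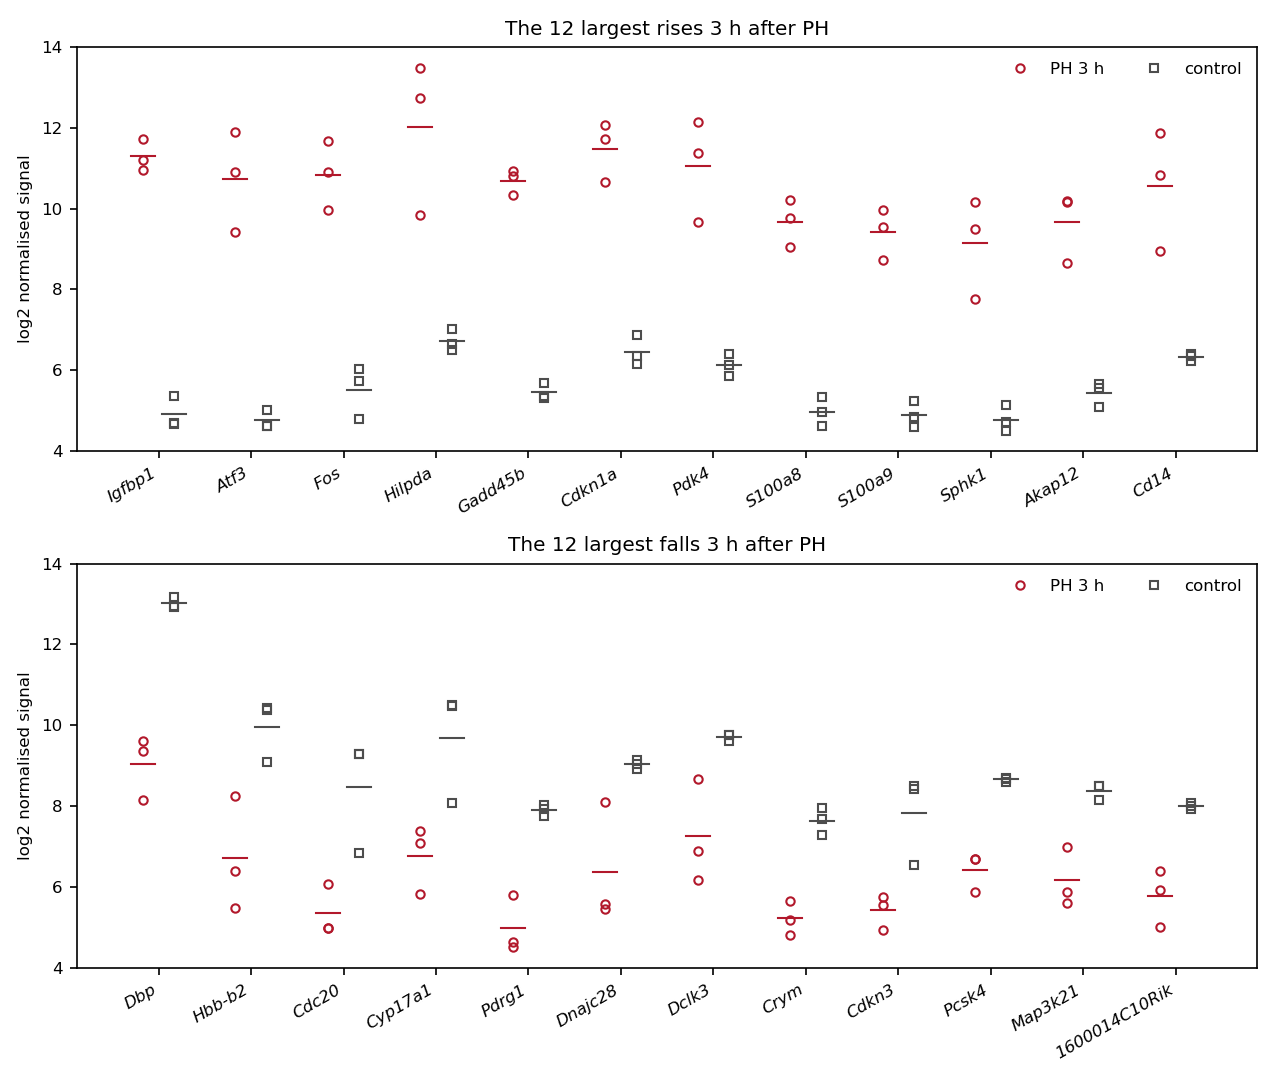
Log2 normalised signal (vertical axis) of the 12 genes with the largest rises (upper panel) and the 12 with the largest falls (lower panel) among called genes whose groups did not overlap, with PH 3 h arrays as circles to the left, control arrays as squares to the right and the group mean as a bar. The rises span changes of 4.22 (Cd14) to 6.39 (Igfbp1), and among the falls control replicate 3 lies nearer the PH 3 h arrays for Cdc20, Cyp17a1 and Cdkn3.

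The largest fall was that of Dbp, a circadian transcription factor of the PAR bZIP family, with 8.14, 9.36 and 9.60 after PH and 12.95, 13.17 and 12.92 in controls. The change was -3.98 (SE 0.71, limma adjusted p = 0.00184), with every PH mouse below every control. Of the 12 largest falls only Dbp, Pcsk4 (-2.24), Map3k21 (-2.23) and 1600014C10Rik (-2.22) were called in each of the 6 left-out fits. Pcsk4 encodes a proprotein convertase best known from germ cells, and Map3k21 a mixed-lineage kinase. Hbb-b2, a beta-globin gene that shares near-identical sequence with its neighbours, had 5.48, 8.26 and 6.40 after PH and 10.38, 10.43 and 9.08 in controls, and its call was lost without PH mouse 1 (-3.25, with -4.02 to -2.63 over the left-out fits). Dnajc28, a DnaJ-family protein, fell by 2.66 (lost without PH mouse 1 or 3, -3.52 to -2.20) and Pdrg1, a p53- and DNA damage-regulated gene, by 2.92 (lost without control 1 or PH mouse 3, -3.33 to -2.68). Dclk3, a doublecortin-like kinase, was called in 1 of the 6 left-out fits only, that without PH mouse 2 (-2.47, -3.18 to -1.93), and Crym, which encodes a thyroid hormone binding protein, lost its call without control 1 or 2 or PH mouse 2 or 3 (-2.42, -2.64 to -2.21). Neither was called with the beadchip block. The other 3 of these falls, Cdc20, Cdkn3 and Cyp17a1, are described with their groups.

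The members of AP-1, the dimeric transcription factor that Fos and Jun proteins form and that immediate early signalling builds up, rose together. All 9 tested genes of a list of AP-1 subunits rose, with a median change of 3.43 against -0.05 over all genes, and all 9 were called with the beadchip block as well. Fos had 9.96, 10.90 and 11.67 after PH and 6.04, 5.72 and 4.80 in controls, and rose by 5.32 (SE 0.76, limma adjusted p = 0.000339). Jun had 9.27, 11.04 and 9.51 after PH and 5.74, 6.26 and 5.82 in controls (4.004, SE 0.55, limma adjusted p = 0.000274). No array of either group overlapped for Fos or Jun. Maff, a small Maf protein (3.44), Fosl2 (3.43) and Jund (2.51) also rose, and the range over the 9 genes was 1.02 to 5.98. Of the 9 rises, 6 were called in each left-out fit.

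The promoters of called genes among the largest changes, the AP-1 subunits, the growth arrest genes and the clock genes were searched for short motifs of transcription factors that respond early, to show the sequence before the start of such genes. RefSeq promoters (build GRCm38.p6, 250 bases before to 50 after the start) were at hand for 32 of the 41 genes, and those 5 with the largest change that hold a match to a CRE, AP-1, CArG, E-box or D-box motif and do not lie on a chromosome left out here are printed, 5′ to 3′ on the strand of the gene, with the match in capitals. Atf3 (chr1:191183284-191183583, minus strand) has a variant cyclic AMP response element, TGACGTAA, read here as its reverse complement at position -10 from the start. Gadd45b (chr10:80929841-80930140, plus strand) has an E-box, CACGTG, at -185. Sphk1 (chr11:116531587-116531886, plus strand, 1 of 5 annotated starts) has an AP-1 site, TGAGTCA, at -50. Btg2 (chr1:134079106-134079405, minus strand) has a full cyclic AMP response element, TGACGTCA, at -166. Gadd45a (chr6:67037358-67037657, minus strand) has a D-box, TTATGCAA, as its reverse complement at -95.
Atf3: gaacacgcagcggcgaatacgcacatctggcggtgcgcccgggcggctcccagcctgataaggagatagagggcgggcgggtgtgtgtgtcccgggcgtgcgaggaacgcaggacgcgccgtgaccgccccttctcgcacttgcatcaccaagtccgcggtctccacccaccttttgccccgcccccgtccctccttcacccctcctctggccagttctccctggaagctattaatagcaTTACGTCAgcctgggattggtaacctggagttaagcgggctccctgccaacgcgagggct
Gadd45b: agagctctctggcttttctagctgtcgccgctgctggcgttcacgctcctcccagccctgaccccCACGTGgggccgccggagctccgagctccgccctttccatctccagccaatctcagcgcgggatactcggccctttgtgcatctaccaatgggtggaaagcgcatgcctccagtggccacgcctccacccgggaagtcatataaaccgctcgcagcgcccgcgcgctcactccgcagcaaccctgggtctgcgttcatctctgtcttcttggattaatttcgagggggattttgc
Sphk1: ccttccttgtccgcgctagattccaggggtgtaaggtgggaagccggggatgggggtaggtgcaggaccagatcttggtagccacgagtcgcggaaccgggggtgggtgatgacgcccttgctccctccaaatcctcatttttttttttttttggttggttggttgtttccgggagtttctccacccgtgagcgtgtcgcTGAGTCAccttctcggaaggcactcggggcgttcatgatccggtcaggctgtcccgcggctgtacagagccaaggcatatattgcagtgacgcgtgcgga
Btg2: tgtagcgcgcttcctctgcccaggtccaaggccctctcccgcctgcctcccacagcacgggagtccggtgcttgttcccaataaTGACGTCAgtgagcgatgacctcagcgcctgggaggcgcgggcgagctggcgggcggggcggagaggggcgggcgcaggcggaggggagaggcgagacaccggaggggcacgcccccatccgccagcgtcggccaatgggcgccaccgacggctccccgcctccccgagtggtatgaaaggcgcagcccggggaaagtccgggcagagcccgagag
Gadd45a: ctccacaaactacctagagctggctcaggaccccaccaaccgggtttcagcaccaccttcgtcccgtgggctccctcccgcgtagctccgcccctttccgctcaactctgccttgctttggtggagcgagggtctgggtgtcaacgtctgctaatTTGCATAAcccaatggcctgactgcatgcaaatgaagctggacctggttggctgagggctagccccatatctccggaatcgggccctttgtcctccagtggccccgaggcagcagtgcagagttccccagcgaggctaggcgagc

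Read on both strands, TGACGTCA was in a promoter of 2 of the 32 genes and in 1.79% of all 32851 mouse promoters of the same length, and TGACGTAA was in 2 of the 32 and 0.499% of all. The AP-1 site TGAGTCA, whose reverse complement TGACTCA is the same site, was in 1 of the 32 and 5.2% of all, the E-box CACGTG in 6 of the 32 and 7.15% of all, the D-box forms TTATGTAA and TTATGCAA in 1 of the 32 each and 0.938% and 0.743% of all, and the CArG box in 0 of the 32 and 1.63% of all. A gene was counted when any of its annotated starts had a match, whereas the share over all is per promoter. Genes with several starts, such as Sphk1 with 5 and Maff with 3, thus had more than 1 window, and the 2 figures are not alike. These matches describe letters in a window of 300 bases and no binding was measured.

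Of 14 tested early response genes beyond AP-1, mostly transcription factors, 8 rose and none fell (median 1.53), and 6 of the 8 were called with the beadchip block. Ier3, an early gene of cell survival, had 8.63, 10.37 and 9.85 after PH and 6.45, 5.92 and 6.25 in controls (3.41, SE 0.44, limma adjusted p = 0.00022). The Krüppel-like factors Klf6 (2.67) and Klf2 (2.48), the second of which endothelial cells induce under flow, rose with no overlap between the groups. Csrnp1 (2.89), which encodes a nuclear protein, lost its call without PH mouse 3 (2.56 to 3.31). Egr2 (2.17) lost it without control 1 or PH mouse 3 (1.56 to 2.76). Egr1 (2.38), a serum-induced zinc finger factor, was called in 1 of the 6 left-out fits only, that without PH mouse 2 (2.10 to 2.66). Egr1 was not called with the beadchip block. Myc, the growth-promoting factor that is a textbook early gene of regeneration, was not well above background on any control array and had 4.71, 4.71 and 5.57 after PH and 4.49, 4.53 and 4.61 in controls, which was not a called difference (0.45, SE 0.34, limma adjusted p = 0.508).

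Some genes listed under growth arrest rose beside these. Of 17 genes of growth arrest and the p53 response 8 rose, 1 fell and 8 were not called (median 1.06), and 7 of the rises were called in every left-out fit. The fall was that of Ccng1 (-0.99), cyclin G1, named here after its value was seen, and its call was lost without control 1 or PH mouse 3 (-1.23 to -0.77). Cdkn1a, the cyclin-dependent kinase inhibitor p21, had 12.07, 10.66 and 11.72 after PH and 6.34, 6.15 and 6.86 in controls, and its change was 5.03 (SE 0.74, limma adjusted p = 0.000399). Gadd45b, a stress sensor of the growth arrest and DNA damage family, had 10.34, 10.93 and 10.81 after PH and 5.36, 5.31 and 5.69 in controls (5.24, SE 0.75, limma adjusted p = 0.000366). For both genes the lowest PH mouse lay above the highest control by several log2 units. Gadd45b was also called higher 3 h after TCP than in controls (4.30), and its difference between PH 3 h and TCP 3 h (0.95) was not called. The paper places Gadd45b among genes with a positive relation to the cell cycle. The relatives Gadd45a (3.70) and Gadd45g (3.04), the antiproliferative gene Btg2 (3.88, at least 10.1-fold against background) and the polo-like kinase Plk3 (2.63) rose too.

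MAP kinase phosphatases and other inhibitors that the pathway itself induces formed a further group, in which 8 of 13 genes rose and none fell (median 0.91). Dusp1, the phosphatase of p38 and JNK, had 12.62, 13.01 and 13.30 after PH and 9.33, 9.26 and 9.11 in controls (3.74, SE 0.55, limma adjusted p = 0.000383). Dusp5 (3.58), a nuclear phosphatase of ERK, had 8.78, 6.96 and 10.08 after PH and 5.01, 5.31 and 4.76 in controls, so that replicate 2 was the lowest of the PH mice. Dusp8 (2.82) and Dusp6 (1.88) rose, and 4 of the 8 rises were called in every left-out fit. Dusp4 (1.86) lost its call without control 2 or 3 or PH mouse 1 or 3 (1.495 to 2.44), and Dusp10 (0.94) in all left-out fits but that without PH mouse 2 (0.71 to 1.14). Without control replicate 3 the count for the group was 4 in place of 8. Of 7 mRNA decay factors, which bind AU-rich elements or recruit deadenylases and so shorten the life of early transcripts, 4 rose (median 0.98), namely Btg2, Zfp36 (2.77), the RNase gene Zc3h12a (0.98) and Zfp36l1 (0.84, lost without control 3 or PH mouse 3, 0.70 to 0.99). Zfp36, which encodes tristetraprolin, had 12.24, 13.44 and 12.44 after PH and 10.18, 9.99 and 9.65 in controls.

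**Figure D2:**
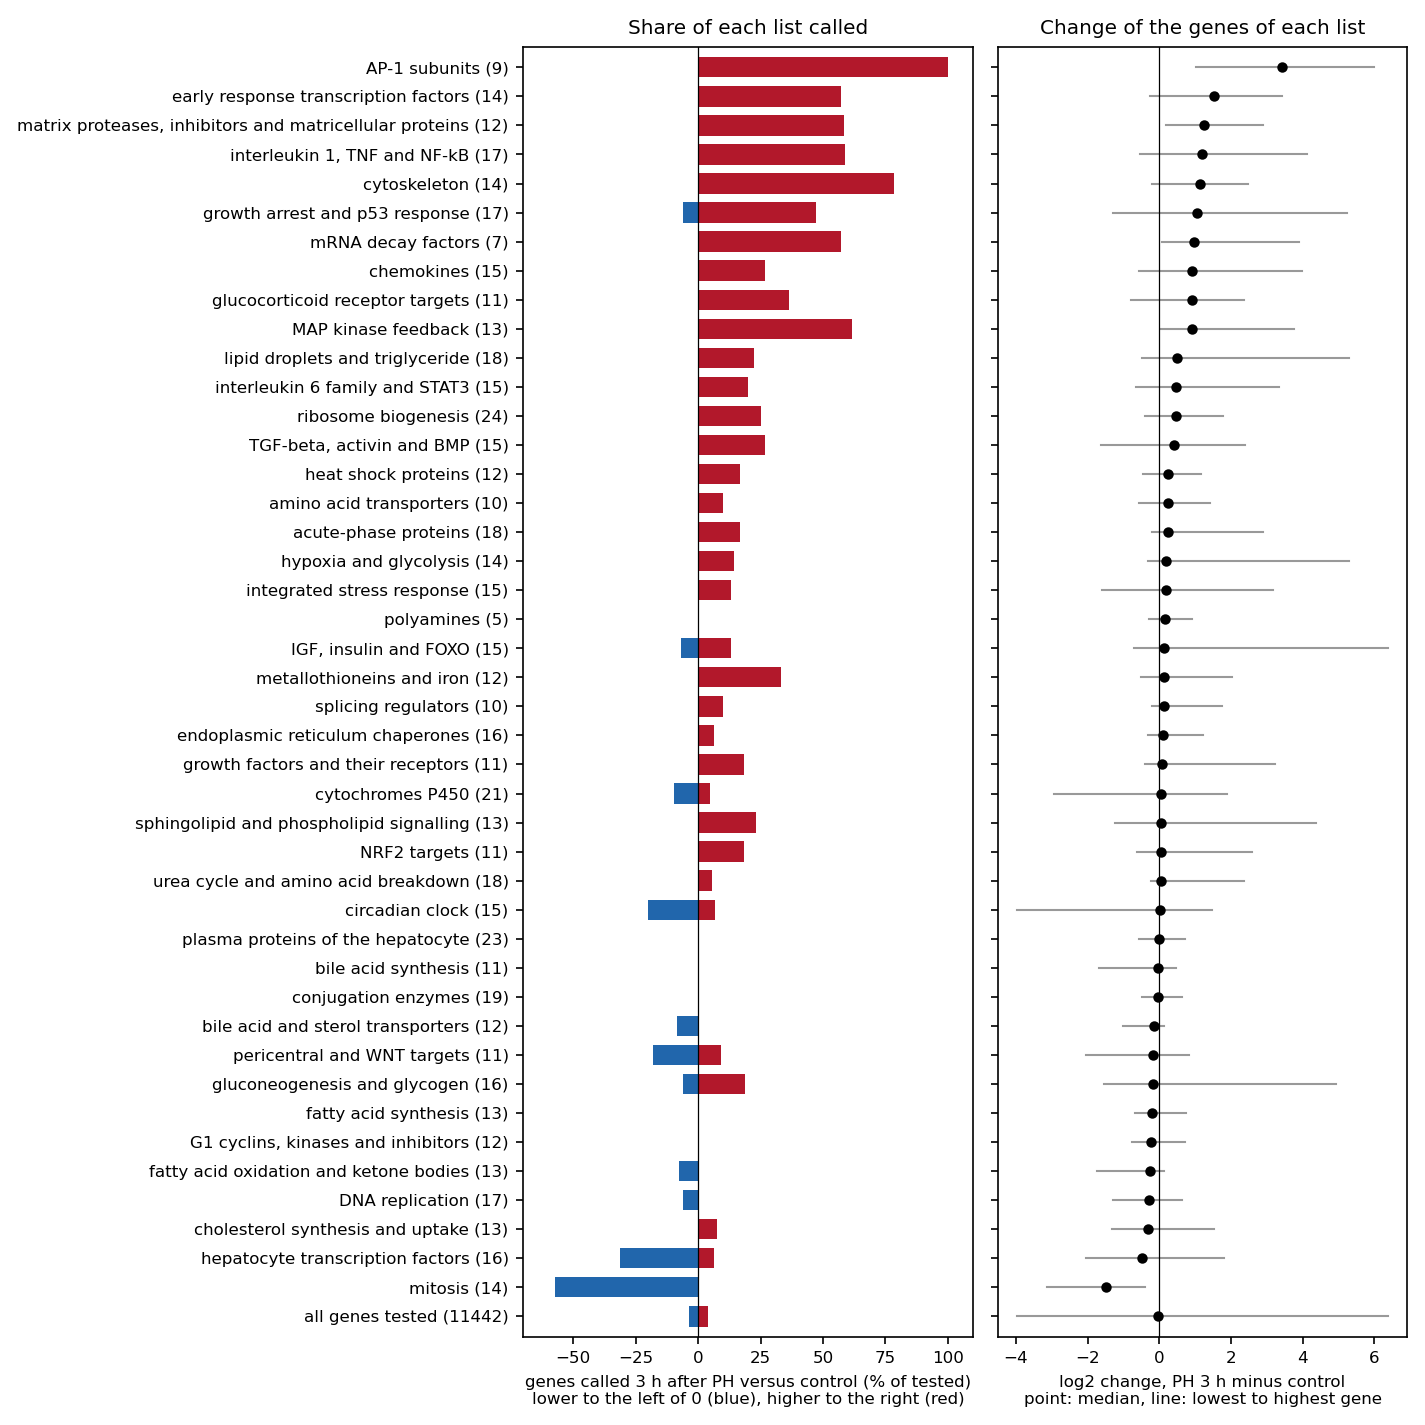
For each gene list, with its number of tested genes in parentheses, the left panel gives the share of genes called higher (right of 0) or lower (left of 0) in percent of those tested, and the right panel the median log2 change (point) and the range from the lowest to the highest gene (line). The AP-1 subunits are the only list shown with all genes called (median 3.43), and mitosis has the lowest median (-1.49), beside -0.05 over all genes tested.

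The genes of the cell cycle itself did not rise. Of 12 G1 cyclins, kinases and inhibitors none was called (median -0.23), by the main test or by the tests without control 3, without PH mouse 2, with the beadchip block or on the authors' values. Ccnd1, cyclin D1, which drives hepatocytes through G1, had 11.68, 11.72 and 11.62 after PH and 12.43, 12.60 and 12.25 in controls. Each PH mouse was below each control, yet the change of -0.76 (SE 0.30) did not pass the test (limma adjusted p = 0.148). Of 17 DNA replication genes 1 fell (median -0.30), which is 5.88% beside 7.43% of all genes tested. It was Mcm10 (-1.30), a gene of replication initiation, whose call was lost in every left-out fit but that without PH mouse 2 (-1.53 to -0.99), and also with the beadchip block. Pcna, the sliding clamp, stood at 6.24, 5.98 and 5.94 after PH and 5.25, 5.89 and 5.89 in controls.

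Of 14 mitotic genes 8 fell and none rose (median -1.49). The largest of these falls were not particular to PH. Cdc20 and Cdkn3 were also called lower 3 h after TCP than in controls (-3.26 and -2.86). Their differences between PH 3 h and TCP 3 h (0.13 and 0.45) were not called. Birc5, survivin, a subunit of the chromosomal passenger complex, had 5.41, 5.27 and 6.17 after PH and 8.59, 8.22 and 6.49 in controls, and fell by 2.15 (SE 0.44, limma adjusted p = 0.00499). Cdc20, the activator of the anaphase-promoting complex, had 4.99, 6.08 and 4.98 after PH and 9.29, 9.30 and 6.84 in controls (-3.13, SE 0.77, limma adjusted p = 0.0174). For both genes control replicate 3 was the lowest control by more than 1.5 log2 units, and it was also the lowest control for Cdkn3 (-2.41), Cdca3 (-1.86) and Plk1 (-1.84). Only Birc5 and Cdca2 (-1.60) were called in every left-out fit. Without control replicate 3 the number of falls was 12 of 14, and Cdc20 lost its call without control 1 or 2 or PH mouse 1 or 3 (-3.95 to -2.72), Cdkn3 without control 1 or 2 or PH mouse 1 (-3.05 to -2.07), Plk1 without control 1 or 2 or PH mouse 3 (-2.27 to -1.60), Cdk1 (-1.46) without control 1 or 2 or PH mouse 1 or 3 (-1.82 to -1.21) and Cdca3 in all but the fit without control 3 (-2.44 to -1.53), and Cdca3 was not called with the beadchip block either.

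Genes of cytokines, their receptors and their regulators were next. Tnf, the gene of tumour necrosis factor itself, did not pass the detection filter and was not tested. Of 17 genes of interleukin 1, tumour necrosis factor and NF-κB signalling 10 rose and none fell (median 1.19), and 6 were called with the beadchip block. Il1b, interleukin 1 beta, had 7.12, 7.002 and 7.36 after PH and 5.31, 5.44 and 4.77 in controls (1.99, SE 0.31, limma adjusted p = 0.000604). The 3 PH mice lay close together, above all controls. Tnfrsf12a, the receptor of the cytokine TWEAK, had 11.51, 8.24 and 11.82 after PH and 6.39, 6.39 and 6.46 in controls (4.11, SE 0.58, limma adjusted p = 0.000333), here with replicate 2 well below the other PH mice. Tnfrsf1b, a receptor of tumour necrosis factor (2.20), the NF-κB regulators Nfkbiz (2.09) and Bcl3 (1.78), and Tnfaip3 (1.97), which encodes the feedback inhibitor A20, rose as well. The call of Tnfaip3 was lost without control 2 or 3 or PH mouse 3 (1.75 to 2.19) and with the beadchip block, and that of Nfkbia (1.29), the inhibitor IκBα, in each of the 6 left-out fits (0.997 to 1.49) and with the block. Without control replicate 3 the count for the group was 6, and on the values normalised by the authors it was 3.

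Of 15 genes of the interleukin 6 family and STAT3, 3 rose (median 0.47). Socs3, the feedback inhibitor that STAT3 induces, had 11.69, 10.64 and 11.68 after PH and 8.30, 8.08 and 7.62 in controls (3.33, SE 0.49, limma adjusted p = 0.000399), with no overlap between the groups. Pim3, a survival kinase gene, rose by 2.09 (lost with the beadchip block, limma adjusted p = 0.0526), and Osmr, the receptor subunit of oncostatin M, by 1.37, and Osmr lost its call without control 1 or 3 or PH mouse 1 or 3 (1.13 to 1.76). Il6ra, the receptor of interleukin 6, had 10.66, 9.48 and 10.59 after PH and 9.61, 9.61 and 9.63 in controls and was not called. Il6 itself, named here after its value was seen, had overlapping groups and was not called (0.04, limma adjusted p = 0.953).

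Among 15 chemokines 4 rose (median 0.92). Cxcl1, a neutrophil attractant that hepatocytes can make, had 14.02, 13.44 and 14.09 after PH and 10.05, 10.14 and 9.39 in controls (3.99, SE 0.52, limma adjusted p = 0.00022), which is 15.9-fold. Ccl4 (2.33), a macrophage product, and Cxcl2 (2.01, at least 2.68-fold against background) rose with no overlap, while Ccl6 (1.30) was called in 1 of 6 left-out fits, that without PH mouse 2 (1.07 to 1.77), and not with the beadchip block. Ccl2, a monocyte attractant, was not well above background on any control array and did not pass the test (1.07, limma adjusted p = 0.165). On the authors' values 1 of the 4 calls was left. Cd14, the co-receptor of endotoxin, had 10.83, 8.95 and 11.87 after PH and 6.23, 6.36 and 6.41 in controls (4.22, SE 0.54, limma adjusted p = 0.00022), and its lowest PH value, again that of replicate 2, lay more than 2 log2 units above the highest control.

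The secreted proteins of the acute phase, the hepatic answer to interleukin 6, had moved little. Of 18 genes 3 rose and none fell (median 0.24), and these were Saa1, Saa2 and Lcn2. Saa1, serum amyloid A1, had 14.08, 12.997 and 13.38 after PH and 10.60, 10.40 and 10.79 in controls (2.89, SE 0.65, limma adjusted p = 0.00974). Its call was lost without PH mouse 1 (2.59 to 3.13), and those of Saa2 (2.62, 2.44 to 2.79) and Lcn2, lipocalin 2 (2.35, 2.11 to 2.73), were lost in every left-out fit except that without PH mouse 2. Saa1 and Saa2 are near-identical copies whose probes may share target. With the beadchip block only Saa1 of the 3 was called. Hamp, hepcidin, stood at 14.55, 14.62 and 14.62 after PH and 14.48, 14.20 and 14.58 in controls.

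Among 11 growth factors and their receptors 2 rose (median 0.07), both ligands of the EGF receptor. Btc, betacellulin, had 6.64, 6.43 and 6.66 after PH and 5.07, 5.29 and 5.07 in controls (1.43, SE 0.24, limma adjusted p = 0.00103). Hbegf, heparin-binding EGF-like growth factor, had 9.65, 7.17 and 10.50 after PH and 5.60, 5.97 and 6.06 in controls (3.23), with replicate 2 the lowest of the PH mice, and its call was lost without control 1 or PH mouse 1 or 3 (2.53 to 4.20). Hgf stood at 7.50, 6.64 and 7.80 after PH and 7.09, 6.93 and 6.83 in controls (0.37, limma adjusted p = 0.543), and Met, its receptor, was not well above background on any PH 3 h array. Of 15 genes of IGF, insulin and FOXO signalling 2 rose and 1 fell (median 0.14). Igfbp1 was called in every fit, whereas Foxo3 (1.70), a transcription factor that insulin holds out of the nucleus, lost its call without any control or PH mouse 2 or 3 (0.98 to 2.30), and Insr, the insulin receptor (-0.63), without control 1 or 2 or PH mouse 1 or 3 (-0.76 to -0.55), and both lost it with the beadchip block. Igf1 stood at 13.38, 13.41 and 13.40 after PH and 13.50, 13.46 and 13.40 in controls, which is a difference of -0.06.

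Of 12 matrix proteases, their inhibitors and matricellular proteins 7 rose and none fell (median 1.23), and 4 were called with the beadchip block. Timp1, an inhibitor of metalloproteinases, had 7.01, 6.58 and 7.43 after PH and 4.84, 4.99 and 5.35 in controls (1.95, SE 0.26, limma adjusted p = 0.000256). Adamts4, a protease of proteoglycans (2.53, at least 3.89-fold against background), Ccn2, connective tissue growth factor (2.06), and Timp3 (1.81) rose, and for all 4 genes each PH mouse lay above each control. Ccn1 (2.88), a relative of Ccn2, was called in 1 of 6 left-out fits, that without PH mouse 1 (2.48 to 3.55), and Plaur (1.33), the urokinase receptor, in those without control 3 or PH mouse 2 (1.04 to 1.81), and neither was called with the beadchip block. In TGF-beta, activin and BMP signalling 4 of 15 genes rose (median 0.41). Skil (2.18) and Tgif1 (1.61), corepressors that hold back SMAD proteins, were called throughout, and Skil had 10.11, 9.68 and 9.28 after PH and 7.16, 7.29 and 8.07 in controls. Follistatin, Fst (2.38), which traps activin, was lost without control 1 or 2 or PH mouse 1 or 3 (1.55 to 3.36), and Id3 (1.21) was called only without control 3 (1.02 to 1.39) and not with the beadchip block.

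After AP-1, the cytoskeleton was the list with the highest share of rises. Of 14 genes 11 rose and none fell (median 1.13), and PH 3 h replicate 2 had the smallest change in 11 of the 11. Krt8, a keratin of the hepatocyte, had 14.18, 13.30 and 14.93 after PH and 12.54, 12.57 and 12.50 in controls (1.60, SE 0.28, limma adjusted p = 0.00171), and its partner Krt18 rose by 1.61. The tubulin genes Tubb2a (2.46) and Tubb6 (2.11, lost without PH mouse 3, 1.55 to 2.94) and the tropomyosin Tpm4 (2.04) rose, while Actb, beta-actin, changed by 0.32 (limma adjusted p = 0.278). Tuba4a (1.19) was called in 1 of 6 left-out fits, that without PH mouse 2 (1.08 to 1.36), and not with the beadchip block. Of the 11 rises 5 were called in every left-out fit, 7 with the beadchip block and 6 without control 3.

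**Figure D3:**
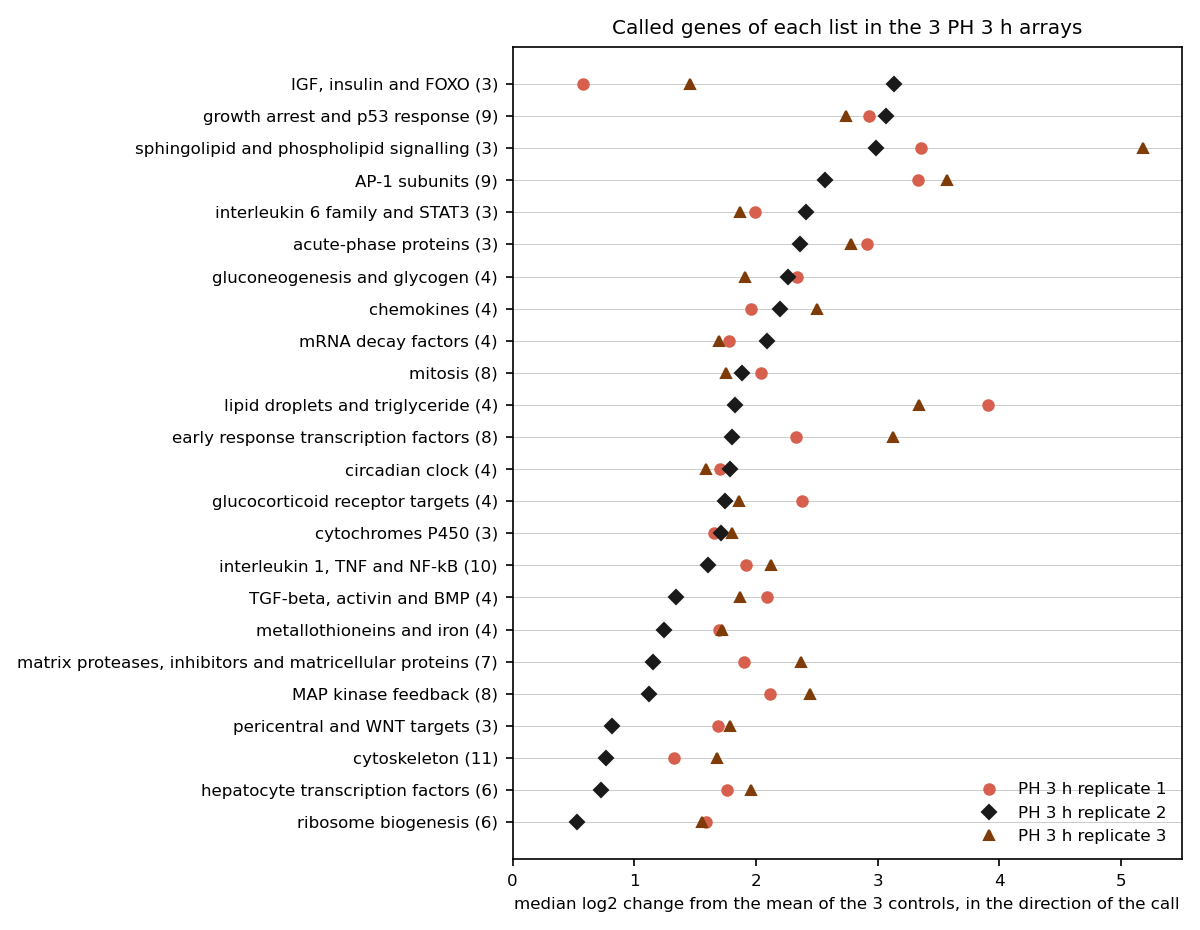
Median log2 change from the mean of the 3 controls, in the direction of the call (horizontal axis), over the called genes of each list with at least 3 of them (their number in parentheses), with 1 symbol for each PH 3 h replicate. PH 3 h replicate 2 is the lowest for the cytoskeleton (0.77, beside 1.33 and 1.68 for replicates 1 and 3) and the highest for the growth arrest genes (3.07, beside 2.93 and 2.74).

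Genes of fuel use showed a few strong rises within groups that for the most part were not called. Of 16 genes of gluconeogenesis and glycogen 3 rose and 1 fell (median -0.18). Pdk4, the kinase that shuts off pyruvate dehydrogenase, had 11.37, 9.66 and 12.15 after PH and 6.12, 5.85 and 6.41 in controls (4.93, SE 0.81, limma adjusted p = 0.000972). G6pc, glucose-6-phosphatase, the last step of glucose release, had 14.06, 14.02 and 13.23 after PH and 10.73, 10.81 and 11.55 in controls (2.74, SE 0.55, limma adjusted p = 0.00471). Both genes were separated between the groups by more than 1.5 log2 units. Pck1, which encodes the PEPCK of gluconeogenesis (1.20), lost its call without control 1 or 2 or PH mouse 1 or 2 (1.03 to 1.42), and the fall of Stbd1, a glycogen-binding protein (-1.25), was called in 1 of 6 left-out fits, that without PH mouse 2 (-1.63 to -1.05). Neither was called with the beadchip block. Of 14 genes of hypoxia and glycolysis 2 rose (median 0.20), and these were Hilpda and the glucose transporter Slc2a1 (1.94, called in 1 of 6 left-out fits, that without PH mouse 2, 1.54 to 2.49, and not with the beadchip block).

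Of 18 genes of lipid droplets and triglyceride 4 rose and none fell (median 0.50). Hilpda, a lipid droplet protein that inhibits adipose triglyceride lipase and that hypoxia and fatty acids induce, had 12.75, 9.84 and 13.47 after PH and 6.50, 6.66 and 7.01 in controls (5.30, SE 0.89, limma adjusted p = 0.00106). Replicate 2 stood about 3 log2 units under the other PH mice and still well above all controls. Plin4, a perilipin, showed the same order, with 9.90, 6.52 and 9.08 after PH and 4.86, 4.97 and 5.11 in controls (3.52). Lpin1, a phosphatidate phosphatase and coactivator (2.53), rose, and Plin5 (1.12) lost its call without control 1 or 2 or PH mouse 1 (0.96 to 1.30) and with the beadchip block. Plin2, the main droplet coat protein of the hepatocyte, had 11.67, 10.33 and 12.46 after PH and 10.90, 10.98 and 10.98 in controls, so that replicates 1 and 3 were above and replicate 2 below the controls, and it was not called (0.53, limma adjusted p = 0.558).

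The pathways that make and burn lipid were mostly not called. Where a list had 1 call its share was 7.69% or 8.33%, near the 7.43% of all genes tested. Of 13 fatty acid synthesis genes none passed (median -0.21), of 13 genes of fatty acid oxidation and ketone bodies 1 fell (median -0.25), of 13 cholesterol genes 1 rose (median -0.32), of 11 genes of bile acid synthesis none passed (median -0.03), and of 12 bile acid and sterol transporters 1 fell (median -0.14). The fall in oxidation was that of Ppara (-1.73), the nuclear receptor of fatty acids, with 5.12, 7.67 and 5.62 after PH and 8.02, 7.39 and 8.18 in controls. Replicate 2 lay within the controls, and the call was lost without control 1 or 3 or PH mouse 1 or 3 (-2.49 to -1.22) and with the beadchip block. Insig2, which holds SREBP in the endoplasmic reticulum, rose by 0.98 (lost without PH mouse 3, 0.85 to 1.05), and Abcg8, a subunit of the sterol exporter, fell by 1.02 (lost without control 1 or 2 or PH mouse 1 or 3 or with the beadchip block, -1.14 to -0.87). Cyp7a1, the rate-limiting enzyme of bile acid synthesis, had 9.10, 11.98 and 9.78 after PH and 12.16, 11.996 and 11.76 in controls. The low values of replicates 1 and 3 and the control-like value of replicate 2 gave a change of -1.69 with an SE of 1.09, which did not pass the test (limma adjusted p = 0.415).

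Sphk1, the kinase that makes sphingosine 1-phosphate, and Chka, choline kinase alpha of phosphatidylcholine synthesis, were among the strongest rises of metabolic enzymes. Sphk1 had 9.49, 7.76 and 10.17 after PH and 5.13, 4.71 and 4.503 in controls (4.36, SE 0.54, limma adjusted p = 0.00022). Chka had 9.30, 9.75 and 11.12 after PH and 6.12, 5.83 and 5.90 in controls (4.11, SE 0.56, limma adjusted p = 0.000256). Both genes were clear of the controls in all 3 PH mice, though Sphk1 was detected on only 1 of the 3 control arrays. With Sgms1, a sphingomyelin synthase (1.86, lost without any control or PH mouse 3, 1.12 to 2.43), they were the 3 rises among 13 genes of sphingolipid and phospholipid signalling (median 0.05).

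The other functions by which a hepatocyte is known gave few calls, beside 7.43% of all genes tested. Of 23 plasma protein genes none was called (median -0.01, range -0.58 to 0.73), of 19 conjugation enzymes none (median -0.04), of 18 genes of the urea cycle and amino acid breakdown 1 rose (median 0.04), and of 10 amino acid transporters 1 rose (median 0.25). Alb, albumin, stood at 13.13, 12.84 and 12.78 after PH and 12.69, 13.22 and 12.60 in controls, and Cps1, the entry enzyme of the urea cycle, at 13.69, 13.83 and 13.77 after PH and 13.70, 13.60 and 14.01 in controls. The groups overlapped for both. The exceptions were Tat, tyrosine aminotransferase, with 9.86, 9.36 and 9.06 after PH and 6.70, 7.34 and 7.11 in controls (2.37, SE 0.39, limma adjusted p = 0.000974), and Slc7a2, a transporter of arginine and lysine (1.42).

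Of 21 cytochromes P450 1 rose and 2 fell (median 0.06). Cyp2d9 had 11.68, 11.74 and 11.83 after PH and 9.77, 9.61 and 10.70 in controls (1.72, SE 0.33, limma adjusted p = 0.00352), and as a member of a family of close copies its probe may also bind relatives. Cyp17a1, the steroid 17-hydroxylase, had 5.82, 7.37 and 7.08 after PH and 10.50, 10.47 and 8.08 in controls (-2.93, SE 0.69, limma adjusted p = 0.0133). All PH mice were below all controls, but control replicate 3 stood more than 2 log2 units under the other controls, and the call was lost without control 1 or 2 or PH mouse 1 (-3.73 to -2.46) and with the beadchip block (limma adjusted p = 0.0517). Cyp2f2 fell by 0.70 (lost without any control or PH mouse 1 or with the beadchip block, -0.83 to -0.50). Cyp2e1, the P450 of ethanol, stood at 15.31, 15.30 and 15.25 after PH and 15.16, 15.14 and 15.18 in controls.

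Among 16 transcription factors of the hepatocyte 5 fell and 1 rose (median -0.48). The rise was that of Cebpb, the C/EBP protein of the acute phase and of regeneration, with 13.87, 14.01 and 13.74 after PH and 11.76, 12.09 and 12.34 in controls (1.81, SE 0.23, limma adjusted p = 0.00022), which was separated between the groups. Besides Ppara, the falls were those of Tbx3 (-2.06), Foxa2 (-1.61), Nr5a2 (-1.14) and Nr1i3 (-0.96), the last of which encodes CAR. None of these was called in every left-out fit. Tbx3 (-2.73 to -1.61), Foxa2 (-1.82 to -1.27) and Nr1i3 (-1.15 to -0.84) each lost the call without control 1 or 2 or PH mouse 1 or 3, and Nr5a2 in all but the fit without PH mouse 2 (-1.34 to -0.85), and of the 5 falls those of Tbx3 and Nr1i3 were called with the beadchip block. Hnf4a, the central factor of hepatocyte identity, stood at 12.21, 11.66 and 11.92 after PH and 11.91, 12.08 and 11.99 in controls (-0.07, limma adjusted p = 0.878). Of 11 pericentral and WNT target genes 1 rose and 2 fell (median -0.17), namely Oat (0.82, lost without control 1 or 2 or PH mouse 2 or 3 or with the beadchip block, 0.68 to 1.02), Tbx3, and Sp5 (-1.43, lost without control 3 or PH mouse 1 or 3, -1.73 to -1.23).

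Of 15 circadian clock genes 1 rose and 3 fell (median 0.02). The falls were Dbp, its relative Tef and the period gene Per3. Tef had 8.85, 8.89 and 8.87 after PH and 10.39, 10.42 and 10.50 in controls (-1.57, SE 0.27, limma adjusted p = 0.00122), and Per3 had 4.91, 4.69 and 5.11 after PH and 6.96, 6.92 and 6.29 in controls (-1.82). All 3 falls were called in every left-out fit and with the beadchip block. The rise was that of Bhlhe40 (1.23), a repressor of the clock that is also an early response gene, which lost its call without any control or PH mouse 3 (1.14 to 1.38) and with the beadchip block. Per1, a period gene that glucocorticoids also induce, had 9.69, 9.16 and 9.75 after PH and 8.21, 8.47 and 8.14 in controls and did not pass (limma adjusted p = 0.123). The hour at which the control mice were killed is not given in the sources used here.

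Among 11 targets of the glucocorticoid receptor 4 rose and none fell (median 0.91), and these were Tat, Lcn2, Sgk1 and Errfi1. Sgk1, the serum- and glucocorticoid-induced kinase, had 11.39, 11.15 and 10.97 after PH and 9.18, 9.14 and 9.43 in controls (1.92, SE 0.28, limma adjusted p = 0.000366). Errfi1 (0.91), a feedback inhibitor of the EGF receptor, lost its call without control 3 or PH mouse 1 or 3 (0.64 to 1.07) and with the beadchip block. Fkbp5, a widely used glucocorticoid target, stood at 9.30, 9.50 and 8.86 after PH and 9.41, 9.12 and 10.01 in controls (-0.30, limma adjusted p = 0.735), so that the list did not move as a whole. With the beadchip block Tat and Sgk1 were called of the 4.

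Stress pathways of the cell gave single calls, to be read beside the 7.43% called among all genes tested. Of 15 genes of the integrated stress response 2 rose (median 0.19), Ppp1r15a (2.31), the phosphatase subunit GADD34 that restores translation, with 8.45, 9.85 and 9.54 after PH and 6.85, 6.89 and 7.17 in controls, and Ddit4 (3.17), an inhibitor of mTORC1, which was highest in replicate 2 (8.25, 11.09 and 9.02 after PH and 6.18, 6.16 and 6.52 in controls) and called neither in any left-out fit (2.35 to 3.77) nor with the beadchip block. Ddit3, the factor CHOP of the same pathway, had overlapping groups (0.19). Of 16 endoplasmic reticulum chaperones 1 rose (median 0.11), Hspa5 or BiP, with 8.70, 9.09 and 9.03 after PH and 7.96, 7.56 and 7.70 in controls (1.20, SE 0.22, limma adjusted p = 0.0021). Of 12 heat shock genes 2 rose (median 0.25), the small chaperone Hspb8 (1.15, lost without PH mouse 3, 0.83 to 1.45) and its partner Bag3 (0.91, lost without control 1 or 2 or PH mouse 1 or 3, 0.73 to 1.21), while Hspa1b was not well above background on any array of either group. Of 11 targets of NRF2, the oxidant sensor, 2 rose (median 0.04), and of 12 metallothionein and iron genes 4 (median 0.13). Hmox1, heme oxygenase, belongs to both lists and had 7.84, 6.38 and 7.36 after PH and 5.21, 4.97 and 5.36 in controls (2.01). It was called only without PH mouse 2 among the left-out fits (1.69 to 2.42), as were Srxn1 (2.59, 1.92 to 3.61) and the manganese exporter Slc30a10 (1.28, 1.06 to 1.55). The transferrin receptor Tfrc (1.60) was called only without PH mouse 3 (1.32 to 1.90), and the zinc and iron importer Slc39a14 (1.43) lost its call without control 1 or 2 or PH mouse 3 (1.12 to 1.68). With the beadchip block none of the NRF2 targets and 1 of the metallothionein and iron genes, Slc39a14, was called.

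Of 24 ribosome biogenesis genes, which a cell needs before it can grow, 6 rose and none fell (median 0.45). Rrp12, a factor of ribosomal RNA processing, had 9.13, 8.52 and 9.79 after PH and 7.26, 7.30 and 7.57 in controls (1.77, SE 0.30, limma adjusted p = 0.00106), and was the only one called in every left-out fit. Nop58 (1.61), a core protein of box C/D particles, lost its call without PH mouse 3 (1.21 to 2.16), Ppan (1.33) without control 1 or PH mouse 1 or 3 (1.10 to 1.71), and Polr1b (0.98), a subunit of RNA polymerase I, without control 1 or 2 or PH mouse 1 or 3 (0.82 to 1.13) and with the beadchip block. Wdr43 (1.03, 0.80 to 1.45) and Gar1 (0.87, 0.72 to 1.14) were called among the left-out fits only without PH mouse 2, and without that array the number of rises in the list was 10 of 24. None of 5 polyamine genes was called (median 0.15), and Odc1, the ornithine decarboxylase, had overlapping groups (0.15, limma adjusted p = 0.703). Of 10 splicing regulators 1 rose (median 0.13), Ccnl1 (1.74), cyclin L1, while Clk1 had overlapping groups (0.11).

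RNA of other cells was read from marker genes, since the whole liver was extracted and a change in the number of cells of a type cannot be told apart from a change in the RNA per cell. All 6 hepatocyte markers were detected, with a summed level of 16.53 to 16.89 after PH and 16.59 to 16.99 in controls (log2 of the sum of their signals), so that the labelled tissue was borne out. Of these 6 Tat was called. Of 8 neutrophil genes 3 rose, and the summed level was 10.30 to 11.33 after PH and 7.69 to 7.84 in controls. S100a8 had 9.06, 9.77 and 10.21 after PH and 4.62, 4.98 and 5.33 in controls (4.70, SE 0.68, limma adjusted p = 0.000366), and S100a9, its partner in calprotectin, had 8.72, 9.55 and 9.96 after PH and 4.596, 4.84 and 5.25 in controls (4.52). S100a8 and S100a9 were each detected on 1 of the 3 control arrays. Retnlg, a resistin-like protein of neutrophils, rose by 2.91, at least 5.32-fold against background. The granule genes Mpo, Elane, Camp and Ltf were not well above background on any control array and were not called, with signals between 4.51 and 6.09 after PH, and the receptor gene Cxcr2 was near background in both groups. S100a8 and S100a9 can be induced in other myeloid cells.

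The markers of the other cells gave few calls, and several summed levels did not overlap between the groups. None of 9 genes of Kupffer cells and macrophages was called, with a summed level of 11.16 to 11.67 after PH and 10.85 to 11.35 in controls, and Clec4f, the gene by which Kupffer cells are told apart, stood at 9.30, 9.19 and 8.80 after PH and 9.31, 9.10 and 8.75 in controls. None of 3 T cell, 2 NK cell and 2 B cell genes was called. The summed level was 6.68 to 7.27 after PH and 6.37 to 6.58 in controls for the T cell genes, and 9.79 to 10.41 after PH and 8.83 to 9.72 in controls for the B cell genes, so that both were higher on each PH array, whereas those of the NK cell genes overlapped. The 2 B cell genes changed by -0.05 and 0.66, so that 1 of them carried the sum. None of 6 monocyte genes passed the detection filter. Of 8 genes of sinusoidal endothelium 1 rose, Lyve1 (1.502, lost without PH mouse 1, 1.25 to 1.68), while Stab2 stood at 8.90, 8.72 and 8.88 after PH and 8.76, 9.004 and 9.19 in controls. Of 8 stellate cell genes 1 rose, Pdgfrb (0.79, called in 1 of 6 left-out fits, that without PH mouse 2, 0.58 to 0.93, and not with the beadchip block), and of 4 platelet genes 1, Pf4 (1.39, lost without PH mouse 1 or 3, 1.18 to 1.75). The summed level of the sinusoidal endothelium was 12.23 to 12.42 after PH and 12.44 to 12.64 in controls, lower on each PH array, and that of the platelet genes 7.76 to 8.23 after PH and 7.09 to 7.51 in controls, higher on each PH array. Each of these sums rests on 2 to 8 genes, and 28.9% of all genes tested had groups that did not overlap. The part that these cells had in the changes described above was not tested.

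Sox9, a transcription factor of bile duct cells that hepatocytes can also express, had 12.64, 9.52 and 12.66 after PH and 8.40, 8.17 and 7.98 in controls (3.42, SE 0.62, limma adjusted p = 0.00197). All PH mice lay above all controls, and replicate 2 was the lowest of them by about 3 log2 units. Krt7, the other cholangiocyte marker that could be tested, stood at 5.46, 5.27 and 5.18 after PH and 5.34, 5.26 and 4.999 in controls, so that Sox9 alone carried the summed level of 9.59 to 12.67 after PH and 8.15 to 8.56 in controls. Of 4 red blood cell genes Hbb-b2 fell, and the summed level was 14.16 to 14.76 after PH and 14.55 to 15.36 in controls. The alpha-globin gene Hba-a1 stood at 14.73, 14.34 and 14.09 after PH and 15.24, 15.28 and 14.47 in controls (-0.61, limma adjusted p = 0.456).

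**Figure D4:**
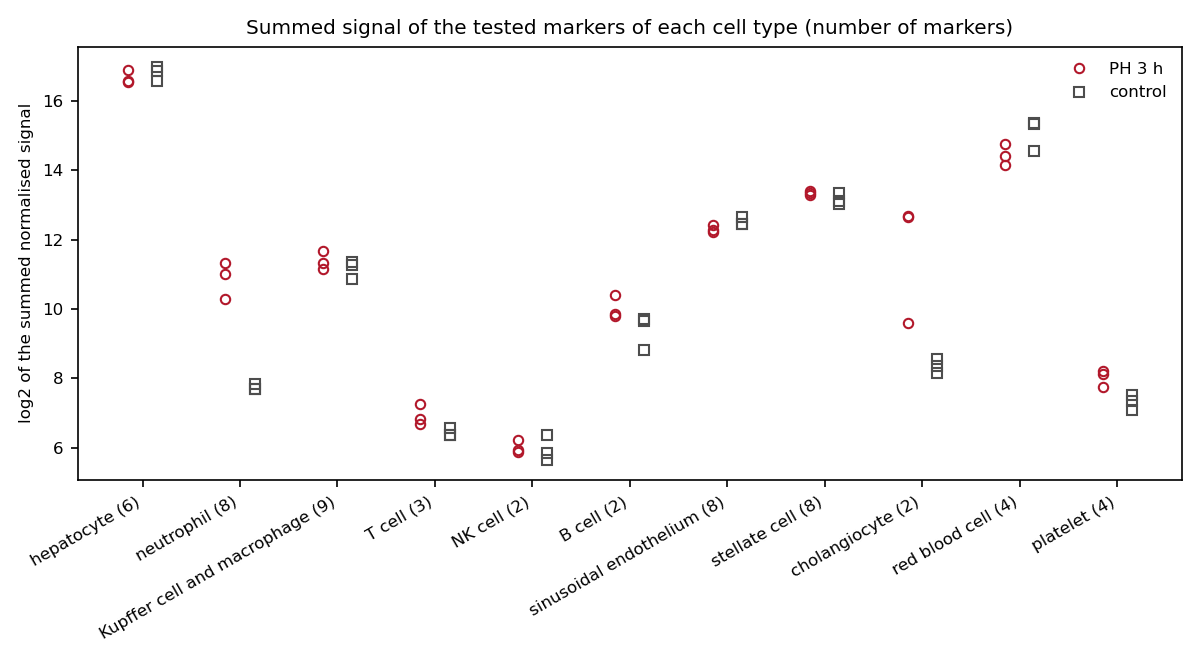
Summed level of the markers of each cell type (vertical axis, log2 of the summed normalised signal, with the number of markers in parentheses) on each PH 3 h array and each control array, with PH 3 h to the left of control. The neutrophil markers are separated (10.30 to 11.33 after PH, 7.69 to 7.84 in controls), as are, all higher after PH, the cholangiocyte markers through Sox9 and, by less, the T cell, B cell and platelet markers, while the sinusoidal endothelium is lower on each PH array and the ranges of the 5 other cell types overlap. Over all genes tested, groups did not overlap for 28.9%.

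The 3 h mice were also compared with mice killed 1 or 6 h after the same operation and with mice killed 3 h after TCP. Against PH 1 h 193 genes were called (1.69% of those tested), 128 higher (1.12%) and 65 lower (0.568%) at 3 h. Tnfrsf12a had 11.51, 8.24 and 11.82 at 3 h and 6.67, 6.11 and 6.73 at 1 h (difference 4.02, limma adjusted p = 0.00329). Timp1 had 7.01, 6.58 and 7.43 at 3 h and 5.24, 4.79 and 4.73 at 1 h (2.09, limma adjusted p = 0.000887). Klf6 had 11.11, 11.21 and 12.33 at 3 h and 8.99, 9.37 and 9.25 at 1 h (2.35, limma adjusted p = 0.00373). All 3 genes were higher in each 3 h mouse than in each 1 h mouse, and they were called in every left-out fit and with the beadchip block. Fos stood at 9.96, 10.90 and 11.67 at 3 h and 9.50, 11.65 and 11.75 at 1 h, and Igfbp1 at 11.21, 10.97 and 11.73 at 3 h and 5.39, 9.86 and 9.83 at 1 h, and neither difference was called. The count rests on single arrays, since it was 842 without PH mouse 2 and 33, 49 or 101 without PH 1 h replicate 1, 2 or 3, and 22 or 6 without PH mouse 1 or 3. All PH 1 h arrays were on beadchip 3, and with the beadchip block 8 of the 193 calls were left.

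Against PH 6 h 541 genes were called (4.73%), 304 higher (2.66%) and 237 lower (2.07%) at 3 h. Ccl4 had 7.01, 7.28 and 7.29 at 3 h and 5.48, 5.95 and 4.95 at 6 h (1.73, limma adjusted p = 0.00272), and was called in every left-out fit and with the beadchip block. Mcm10 had 10.49, 10.78 and 9.70 at 3 h and 8.01, 9.37 and 7.63 at 6 h (1.99, limma adjusted p = 0.00806), and was called in every left-out fit but not with the block. Lcn2 had 12.08, 11.06 and 12.29 at 3 h and 14.95, 14.05 and 15.39 at 6 h (-2.99), and was called in 4 of 6 left-out fits. Each of the 3 h mice was above the 6 h mice for Ccl4 and Mcm10 and below them for Lcn2. The count was 1148, 306 or 182 without PH 6 h replicate 2, 1 or 3 and 275 or 289 without PH mouse 1 or 2. All PH 6 h arrays were on beadchip 4, and 8 genes were called with the beadchip block, 6 of them among the 541.

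Against TCP 3 h 499 genes were called (4.36%), 300 higher (2.62%) and 199 lower (1.74%) after PH. Igfbp1 had 11.21, 10.97 and 11.73 3 h after PH and 5.37, 7.69 and 5.48 3 h after TCP, and Fos had 9.96, 10.90 and 11.67 after PH and 6.18, 5.83 and 6.71 after TCP. Every PH mouse lay above every TCP mouse for both. Some of the largest changes against control were shared by the 2 treatments at 3 h. Of the 12 largest falls after PH, those of Cdc20, Cdkn3, Crym, Pcsk4 and 1600014C10Rik were also called after TCP, and the others were not. Of the 12 largest rises, that of Gadd45b alone was also called after TCP. The lack of a call does not show that a rise was absent. Cdkn1a had 7.90, 11.105 and 8.64 3 h after TCP, each above every control, without a call (2.77, limma adjusted p = 0.0772). Its difference between PH 3 h and TCP 3 h (2.27, limma adjusted p = 0.0927) was not called. Ccnd1 had 11.68, 11.72 and 11.62 after PH and 12.75, 11.997 and 11.90 after TCP (-0.55, limma adjusted p = 0.362). No beadchip held arrays of both groups, so that beadchip and treatment cannot be told apart in this comparison except through arrays of other groups, and that block left 3 calls. The count was 842, 269 or 203 without PH mouse 2, 1 or 3 and 264 or 297 without TCP 3 h replicate 1 or 3.

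**Figure D5:**
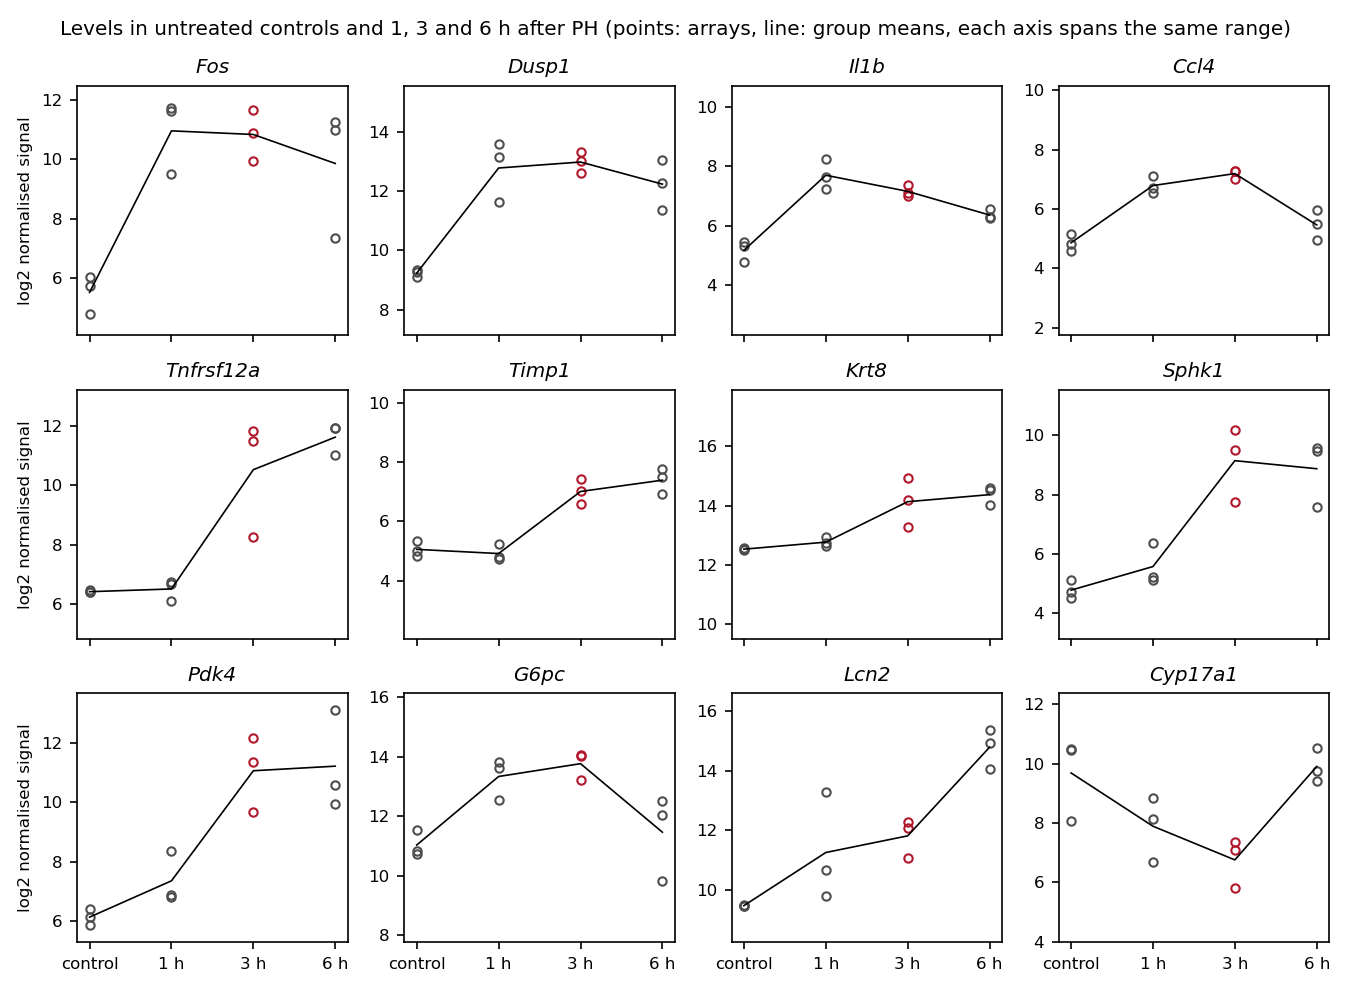
Log2 normalised signal of 12 genes (vertical axes) in untreated controls and 1, 3 and 6 h after PH (horizontal axis, hours), with 1 point per mouse, the 3 h mice in red, and lines through the group means. At 3 h Tnfrsf12a and Timp1 lie above the 1 h mice in every mouse, Ccl4 lies above and Lcn2 below the 6 h mice, and Cyp17a1 lies below the controls.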

How the data were processed

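Liver RNA of each mouse was hybridised to an Illumina mouse beadchip, named MouseRef-8 v2 in the labels and WG-6 v2.0 in the methods. The deposited table holds, for 45281 probes on each of 21 arrays, the intensity of the signal and its detection p-value, which the authors exported from BeadStudio without normalisation between arrays. The authors' normalised log2 values (quantile normalisation, in the series matrix) were used as an alternative only. Intensities were background corrected, quantile normalised and log2 transformed with neqc of limma 3.58.1 in R 4.3.3 (offset 16, so that the lowest value is 4). Kept were probes that had 1 gene symbol and were detected (p under 0.05) on 3 or more arrays (34885 probes had 1 symbol, 18 several and 10378 none here), and the brightest probe stood for its gene. Quantile normalisation forces the same distribution on every array, so that a shift of all genes would not be seen, and the offset shrinks the changes of dim genes. The number of arrays limits the precision.

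The 7 groups were fitted together in limma, with Benjamini-Hochberg adjustment over 11442 genes. Groups were taken from the array titles, and p-values measure the spread between mice. A gene not well above background on any array of a group was given its fold as a lower limit ("at least"), taken from the dimmest signal detected. The 12 largest rises and falls with groups that did not overlap, up to 6 called members of each list with the largest change, the leading 2 symbols of each list and the detected cell type markers could be named. The comparison, the lists and this rule were chosen with earlier results of these data known. Background correction, normalisation, filters, the probe for a gene, the arrays in the model, beadchip, array weights and leaving out each array were varied, as planned, and robust empirical Bayes was added after the data had been seen. The procedure was tested on simulated data. Promoter sequences came from RefSeq (GRCm38.p6).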

Additional observations from a re-analysis of the deposited data

Results flagged for a closer look

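For 29 of the named genes the level 3 h after PH differed from that 1 h after PH by the limma test of the difference itself (adjusted p under 0.05 and at least 1.5-fold). Higher at 3 h, in order of size, were Tnfrsf12a by 4.02, Pdk4 by 3.71, Sphk1 by 3.57, Sox9 by 3.18, Cdkn1a by 2.99, Akap12 by 2.89, Plin4 by 2.79, Cd14 by 2.72, Dusp8 by 2.66, Tubb6 by 2.45, Adamts4 by 2.38, Dusp5 by 2.35, Klf6 by 2.35 and Chka by 2.29. Smaller differences of the same sign were those of Timp1 (2.09), Retnlg (1.84), Plin2 (1.82), Tnfrsf1b (1.77), Tgif1 (1.61), Slc7a2 (1.38), Krt8 (1.36), Timp3 (1.32), Plin5 (1.27), Btc (1.22), Clk1 (1.20), Krt18 (1.15), Wdr43 (1.08) and Insig2 (0.94). Map3k21 was lower at 3 h, with a difference of -1.51. Of these 29 differences 3 (Tnfrsf12a, Timp1 and Klf6) were called in every left-out fit and with the beadchip as a block, and all 29 had the same sign within beadchip 3, which held PH 3 h replicates 1 and 2 and all PH 1 h arrays. Those arrays also made the calls, so that the shared sign is no separate support.

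Another 15 of the named genes differed between 3 h and 6 h after PH by the same test. At 3 h G6pc was higher by 2.31, Mcm10 by 1.99, Foxo3 by 1.80, Ccl4 by 1.73, Pck1 by 1.29, Abcg8 by 1.05 and Dusp10 by 0.88. The differences of the genes lower at 3 h were -3.15 for Cyp17a1, -2.99 for Lcn2, -2.94 for Saa2, -1.36 for Nop56, -1.34 for Slc39a14, -1.16 for Rrp12, -0.95 for Srm and -0.63 for Hnf4a. Ccl4 and Mcm10 were called in every left-out fit, 1 of the 15 (Ccl4) with the beadchip block, and all 15 had the same sign within beadchip 4, which held PH 3 h replicate 3 and all PH 6 h arrays. Here too the arrays are among those that made the calls.

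Of 3431 detected probes that carry no single gene symbol here, and so entered no comparison above, 133 were called by the limma test, a smaller share than the 7.43% of genes tested. Of these, 82 were higher and 51 lower 3 h after PH. For 81 of the 82 the PH 3 h and control arrays, on which the calls were made, did not overlap.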

How the results depend on the processing

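No call of a gene named above changed direction under an alternative, and of all 850 calls 1 changed sign, with the mean of a gene's probes. Among the calls rises outnumbered falls except with array weights, and within a single beadchip, where none was made. For PH 3 h against control the 850 calls (449 higher, 401 lower) became 434 (225 and 209) with only probes of a median signal over 300, 474 (280 and 194) with only control and PH arrays in the model, 1931 (935 and 996) with array weights, 324 (204 and 120) on the authors' values, 535 (309 and 226) with beadchip as a fixed block and 0 (0 and 0) within beadchip 3 or within beadchip 4, where each group has 1 or 2 arrays. Leaving out 1 array gave 325 to 1279 calls (220 to 652 higher and 105 to 627 lower). The other settings, an offset of 50, median scaling, no filter, the mean of probes, only the 2 groups, a random beadchip block and robust empirical Bayes, gave 673 to 852. The cause of these shifts was not tested.

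Against PH 1 h the 193 calls became 49 on the authors' values, 88 without a filter and 8 with the beadchip block, and 6 to 842 with 1 array left out. Against PH 6 h the 541 calls became 1057 with median scaling, 185 on the authors' values and 8 with the beadchip block, and 182 to 1148 with 1 array left out. Against TCP 3 h the 499 calls became 189 on the authors' values and 3 with the beadchip block, and 203 to 842 with 1 array left out. Median scaling also moved the split of calls, to 149 higher and 26 lower against PH 1 h (from 128 and 65), 949 and 108 against PH 6 h (from 304 and 237, with the median of all genes at 0.18) and 384 and 91 against TCP 3 h (from 300 and 199).

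Groups share replicate numbers in the labels. The correlations of same-numbered control and PH 3 h mice, after removal of the group means, were -0.05, 0.07 and 0.04. With 3 mice per group such values cannot exclude a pairing, and the mice were treated as unpaired. With the replicate number as a block the counts were 833 (438 higher and 395 lower) against control, 180 against PH 1 h, 556 against PH 6 h and 466 against TCP 3 h. Probes near background limit the depth, and the offset shrinks the changes of dim genes. The size of a change also depended on the normalisation. On the authors' values each of the 12 largest rises and 12 largest falls was smaller in size. Igfbp1 changed by 3.20 in place of 6.39, Dbp by -3.53 in place of -3.98, Pcsk4 by -0.87 in place of -2.24 and Crym by -0.57 in place of -2.42. The folds printed above hold for the normalisation used here.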
